A study of Homo sapiens with 12 samples.

Results

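The latest time point of a treatment series in MIA PaCa-2, an epithelial cell line from a human pancreatic carcinoma, is described here, 72 h after addition of LE, a leaf extract of Achyranthes aspera dissolved in methanol, at 34 µg/mL. It was measured on 2 arrays, all that the series has at 72 h, of 12 arrays in all, with 6 at 24 h and 4 at 48 h. Each array carried RNA of LE-treated cells in one dye and RNA of control cells, which received 2% methanol, in the other. On 72 h replicate 1 the LE RNA was labelled with Cy3 and on 72 h replicate 2 with Cy5, so each dye orientation was measured 1 time. The deposited values are log2 ratios, read here as LE over control, so that a value of 1 is a doubling and a value of -1 a halving. The labels do not state the direction of the ratio, and this reading is likely rather than settled. Of 43376 features (spots) on the array table, 17134 (39.5%) had a value on all 12 arrays, and 13436 of these carried 1 gene symbol, which gave 8828 genes. The methods describe cultures in duplicate and dye-swapped hybridization of biological replicates, but the labels do not say which arrays share a culture, so p-values measure only the spread between these arrays.

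Several of the genes met below belong to signalling and survival routes that matter in epithelial tumours. EGFR is a receptor tyrosine kinase at the cell surface, and SHC1 is an adaptor that couples activated receptors to Ras. CEBPA encodes a transcription factor known for restraining proliferation and driving differentiation, and BCL2 protects mitochondria from the proteins that start apoptosis.

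The median log2 ratio was 0.06 on 72 h replicate 1 and 0.03 on replicate 2, with SDs over features of 0.68 and 0.63. The feature values of the 2 arrays correlated weakly, with a Pearson correlation of r = 0.187 and a Spearman correlation of 0.147 across 17134 features, which share arrays and are not independent replicates. Replicate 1 had r between -0.02 and 0.44 (median 0.23) with the 5 arrays at 24 h and 48 h of the same dye orientation, and between -0.13 and 0.10 (median -0.04) with the 5 of the opposite orientation. Replicate 2 had r between 0.17 and 0.50 (median 0.43) with arrays of its own orientation and between -0.24 and 0.25 (median -0.04) with the others. The 72 h arrays therefore resembled arrays of other time points with the same dyes more than those with opposite dyes. After the mean dye effect of the 24 h and 48 h arrays was removed, the correlation of the 2 arrays at 72 h was 0.366.

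The gene names rest on single features. On the array, 168 accessions had 8 or more measured features, and features of the same accession shared no more of their log ratio than unrelated ones, with an intraclass correlation of -0.001 on replicate 1 and 0.003 on replicate 2. On the arrays at 24 h and 48 h this correlation lay between -0.016 (24 h replicate 6) and 0.007 (24 h replicate 3). Whether a feature had a value did follow the accession. Of 239 accessions with 8 or more features on the table, 160 had a value at over 90% of them, 65 at none and 14 lay between. The paper states that its features include replicated spots. Whether the features of an accession are such spots was not tested, but their log ratios did not agree on any array. Beyond these correlations, whether the deposited values are paired with the right feature IDs was not tested. Each gene name below, as the platform annotation gives it, carries that doubt. Single values are those of a feature unless they are called gene means.

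Across features, 9264 (54.1%) lay on the same side of 0 on both arrays, 5196 above (30.3%) and 4068 below (23.7%). When each ratio was turned by its dye label, 7865 did. Large values were more often negative. Only 82 features (0.479%) were above 1 on both arrays, against 262 (1.53%) below -1, and 11 were below -2 on both while 0 were above 2. The features above 1 carried 66 gene symbols, with 15 features of no symbol, and those below -1 carried 199, with 56 of no symbol. At the edge of the higher set, NUTF2 had 1.004 and 1.015 while RIMOC1, with 1.30 and 0.997, was outside. At the edge of the lower set, DESI1 had -1.001 and -1.61 while PTPN11, with -1.30 and -0.999, was outside. These sets were chosen by size on these 2 arrays, so their 72 h values are a description.

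**Figure D1:**
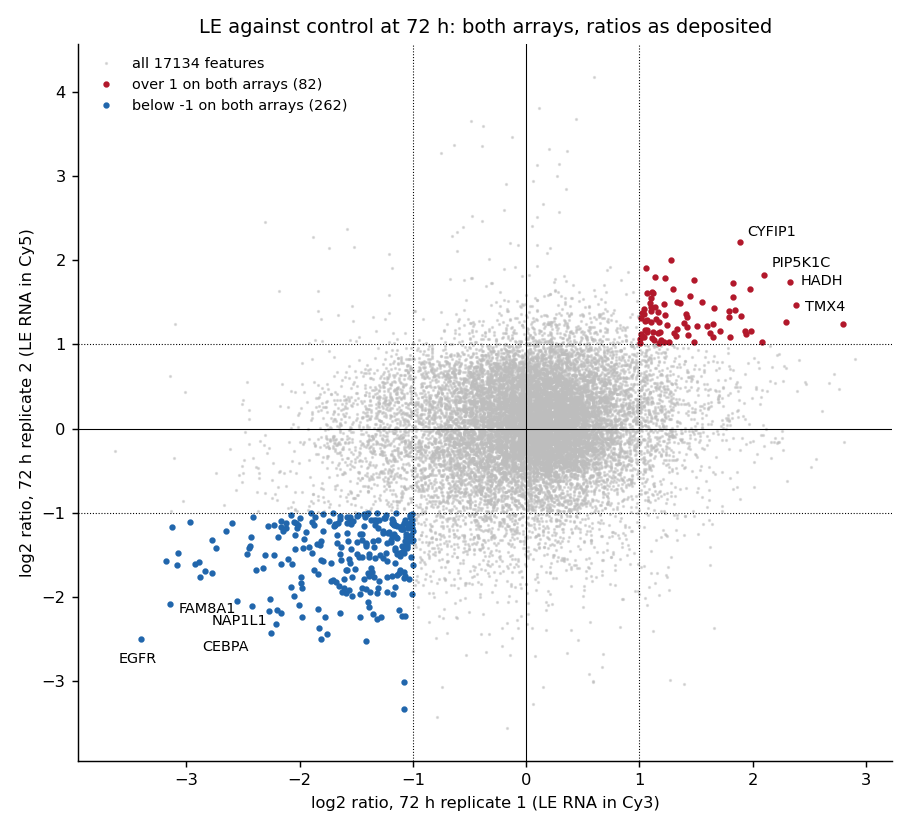
Log2 ratio of each of 17134 features on 72 h replicate 1 (horizontal) against replicate 2 (vertical), as deposited, with dotted lines at 1 and -1. The 82 features above 1 on both arrays (red) are outnumbered by the 262 below -1 (blue), and the cloud as a whole is nearly round (r = 0.187).

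In limma, with 1 term per time point over all 12 arrays and Benjamini-Hochberg adjustment over 17134 features, 0 features (0.0%) differed from 0 at 72 h at FDR 0.01. At an unadjusted p under 0.05 there were 1541 (8.99%), of which 692 were above 0. At FDR 0.05 there were 3, all below 0 (0.0175%), those of CEBPA, WDFY3-AS2 and EGFR. In simulated data with the same number of arrays, 100 features changed by 1 and 100 by 2. The noise was independent between arrays and features. Its size was each feature's residual SD in these data, from a fit without a dye term, so dye differences were part of it. At FDR 0.01, 0 of the changes of size 1 and 22 of those of size 2 were recovered, and at FDR 0.05, 1 and 50. Under that setting, where dye differences enter as independent noise and not as an effect of the dye, changes of size 1 were rarely recovered.

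The EGFR feature had the value farthest below 0 of the named ones, -3.40 on replicate 1 and -2.50 on replicate 2. Its mean of -2.95 ± 0.64 (SD, n = 2) is a 7.73-fold lower ratio, with an adjusted p in limma of 0.04995. At the earlier times the same feature lay around 0, from -0.88 to 0.89 on the 6 arrays at 24 h and from -0.73 to 0.78 on the 4 at 48 h. Because it was chosen for its size at 72 h, the choice itself favours a gap from the earlier arrays. EGFR had 9 other measured features, with a median of -0.35 over a range from -1.94 to 0.82, and 6 of these had a mean below 0. Averaged over its 10 features, EGFR had a gene mean of -0.65 and was not called (limma adjusted p = 0.416 over gene means). The feature of SHC1, the adaptor downstream of such receptors, stood at -2.20 and -2.15. Its 9 other features had a median of -0.20 and ranged from -0.74 to 0.51.

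CEBPA was measured by 1 feature, at -2.25 and -2.42 on replicates 1 and 2. The mean of -2.34 ± 0.12 (SD, n = 2) is a 5.05-fold lower ratio (limma adjusted p = 0.0275). It was below 0 on 6 of 6 arrays at 24 h (mean -0.50 ± 0.35, SD) and on 2 of 4 at 48 h (mean -0.15 ± 0.54). WDFY3-AS2, a long noncoding RNA antisense to WDFY3, stood at -2.21 and -2.32, a 4.80-fold lower ratio (limma adjusted p = 0.0275). Like EGFR it was near 0 before, with a mean of 0.02 ± 0.36 at 24 h and -0.19 ± 0.47 at 48 h. None of the 3 features passed FDR 0.05 in limma without 72 h replicate 1, where the adjusted p was 0.197 for CEBPA, 0.201 for WDFY3-AS2 and 0.622 for EGFR, and 7 other features, all above 0, passed instead. Without 24 h replicates 1, 2 or 3 or 48 h replicates 2 or 3, 0 features passed it.

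Other regulatory genes were among the 12 features farthest below 0 that carry 1 symbol. HDAC7, a class IIa histone deacetylase, stood at -1.98 and -2.23, and its other feature at -1.23 and -0.85. NAP1L1, a histone chaperone, had -2.56 and -2.05, with 3 other features around 0.22 (median). LRP1, an endocytic receptor for lipoproteins and protease complexes, stood at -1.98 and -1.89, while its 9 other features had a median of 0.20. HDAC7 was thus the gene among these whose features all lay below 0. Such agreement was no more common than among features at large. Over genes with 2 features, the partner of a feature below 0 on both arrays was also below in 23.6% of cases, against 23.7% of all features. ZYG11B, a substrate receptor of a cullin ubiquitin ligase, had -2.05 and -1.98, with 2 other features at a median of -0.27. FAM8A1, a cofactor of the ubiquitin ligase that clears misfolded proteins from the endoplasmic reticulum, had -3.15 and -2.08, and its other feature had a mean of 0.62.

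The other features of this set were those of SPG21, MRPL12 and FGF7P6, each measured by 1 feature. SPG21, an endosomal protein, had -2.27 and -2.16 and was below 0 on 4 of 4 arrays at 48 h, with a mean of -1.37. MRPL12, a protein of the mitochondrial ribosome, had -2.01 and -2.09 after means of 0.06 at 24 h and -0.40 at 48 h. The pseudogene FGF7P6 had -2.27 and -2.02 and was below 0 on every earlier array, with means of -1.20 ± 0.50 (SD, n = 6) at 24 h and -0.99 ± 0.56 (SD, n = 4) at 48 h. Since FGF7P6 has close copies in the genome, the transcript behind its value is uncertain. The adjusted p in limma was 0.0876 for FGF7P6, 0.0807 for MRPL12 and 0.222 for SPG21.

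The 12 features farthest above 0 that carry 1 symbol came from genes of varied function. CYFIP1, a part of the WAVE complex that starts actin branching, had the highest value among them on its lower array, 1.89 on replicate 1 and 2.22 on replicate 2. PIP5K1C, which makes the membrane lipid PIP2, had 2.10 and 1.83. HADH, a dehydrogenase of mitochondrial fatty acid oxidation, had 2.33 and 1.74. These are 4.15-fold, 3.90-fold and 4.10-fold higher ratios by their means, and the adjusted p in limma was 0.222, 0.216 and 0.189, so none was called. LCLAT1, an acyltransferase that remodels cardiolipin, stood at 1.83 and 1.56, and SAMD8, a ceramide phosphoethanolamine synthase, at 1.41 and 1.36. SAMD8 was the feature in this set above 0 on all 6 arrays at 24 h (mean 0.86 ± 0.76) and all 4 at 48 h (mean 0.96 ± 0.33).

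The BCL2 feature had 1.55 and 1.51, a mean of 1.53 ± 0.03 (SD, n = 2) and an adjusted p in limma of 0.216. It had a mean of 0.06 ± 0.74 at 24 h and of 1.01 ± 0.31 at 48 h, where it was above 0 on 4 of 4 arrays. The other 10 features of BCL2 ranged from -0.51 to 0.47 around a median of -0.00, so this value was that of 1 feature in 11. CENPQ, a centromere protein, had a feature at 1.66 and 1.44, and its 9 others ranged from -1.40 to 1.13. TMX4, a thioredoxin-related protein of the endoplasmic reticulum, had 2.38 and 1.47, after a mean of -0.97 ± 1.39 at 48 h, and its 2 other features ranged from -0.43 to 0.31. The remaining features of these 12 were those of TANC1 (1.98 and 1.66), HEMK1 (1.48 and 1.77), ZNF681 (1.45 and 1.58) and UBXN11 (1.84 and 1.41). UBXN11 was above 0 on 4 of 4 arrays at 48 h with a mean of 1.45 ± 0.54, while HEMK1 had a mean of 0.14 ± 0.16 there. At 72 h the other feature had a mean of -0.01 for HEMK1 and 0.14 for ZNF681.

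**Figure D2:**
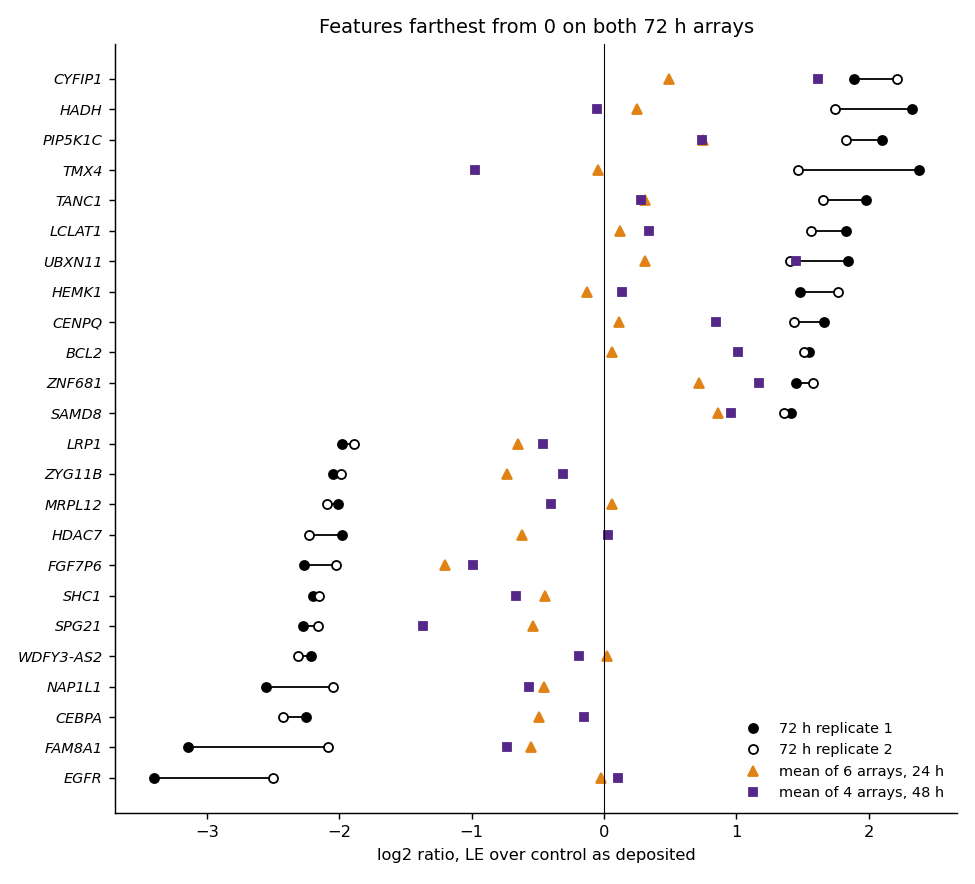
Log2 ratio (horizontal) of the 12 features of 1 symbol farthest above and the 12 farthest below 0 on both 72 h arrays, with each 72 h array as a circle joined by a line and the means at 24 h (6 arrays, triangles) and 48 h (4 arrays, squares). EGFR and WDFY3-AS2 had earlier means near 0, while FGF7P6 and SAMD8 had earlier means on the same side as at 72 h.

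The features of one gene often lay apart. EGFR had 10 measured features, of which 4 were below 0 on both 72 h arrays and 2 above. JUN, an immediate-early transcription factor, had a feature at 1.42 and 1.20 and another at -1.07 and -1.41, among 10 features with a median of 0.06. PARP1, which senses DNA breaks, had a feature at -1.08 and -1.78 while 5 of its 10 features were above 0 on both arrays. The reference genes spread in the same way. ACTB (cytoskeletal actin) had a mean of -0.17 over 13 features that ranged from -2.24 to 0.74, and GAPDH (glycolysis) a mean of 0.24 over 10 features from -0.57 to 1.43.

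**Figure D3:**
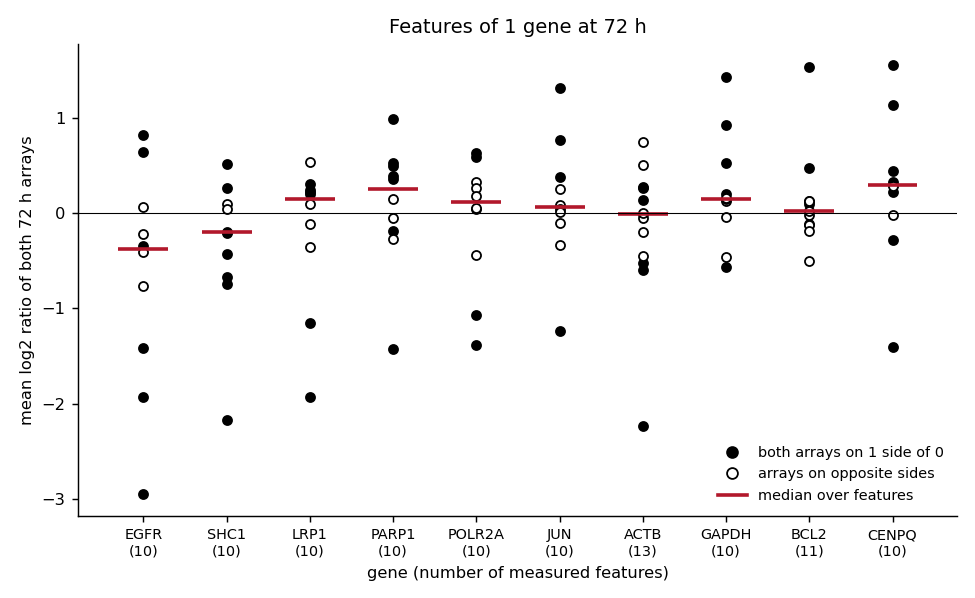
Mean log2 ratio of both 72 h arrays (vertical) for every measured feature of 10 genes, filled where both arrays lay on the same side of 0 and open where they did not, with the median over features as a red bar. Features of JUN lie between -1.24 and 1.31 and those of EGFR between -2.95 and 0.82.

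The same was seen over all genes with several features. Among genes with 2 features, the partner of a feature above 0 on both arrays was also above 0 on both in 306 of 1109 cases (27.6%), against 30.3% of all features. The partner of a feature below 0 was below in 212 of 897 cases (23.6%), against 23.7%. Of 2544 genes with 2 or more features, 266 had all of them on the same side on both arrays, 159 above and 107 below. Of these, 259 were among the 1860 genes with 2 features. Partners thus agreed no more often than the shares of all features, so agreement within a gene adds no support to its values.

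Of the genes with all features on the same side, those with the largest smaller values were, below 0, GFER, HDAC7, DPH6, LATS2 and ARHGAP18. GFER, a sulfhydryl oxidase of the mitochondrial intermembrane space, had -1.23 and -1.58 at one feature and -1.26 and -1.24 at the other. LATS2, a kinase of the Hippo growth-control pathway, had -1.57 and -1.33 at one and -0.75 and -1.43 at the other. DPH6, which acts in diphthamide synthesis, and ARHGAP18 had feature means between -1.30 and -0.95. Above 0 these genes were POLR2J4, SMIM29, COPA, UBE3A and CBX5. COPA, a subunit of the coatomer coat of transport vesicles, had 1.13 and 0.99 at one feature and 1.28 and 0.53 at the other. UBE3A, a ubiquitin ligase, had 0.66 and 0.54 at one and 0.51 and 0.51 at the other, and CBX5, the heterochromatin protein HP1 alpha, had feature means of 0.72 and 0.65. POLR2J4 has near-identical copies, so its feature means of 1.16 and 0.93 may be those of a relative.

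Whether the large features of 72 h had the same sign earlier was read from the 10 arrays at 24 h and 48 h, which had no part in choosing them. Of the 82 features above 1, 71 (86.6%) had a mean above 0 at 24 h, against 53.4% of all features, with a median of 0.28. At 48 h, 70 (85.4%) did, against 50.3% of all features, with a median of 0.44. Of the 262 below -1, 237 (90.5%) had a mean below 0 at 24 h, against 46.6%, with a median of -0.45. At 48 h, 239 (91.2%) did, against 49.7%, with a median of -0.48. Both sets thus kept their side at both earlier times, with medians closer to 0 than at 72 h, where the median of the feature means was 1.33 for the higher and -1.49 for the lower set, values that the choice itself sets.

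The signs held in each dye orientation. Of the higher set, 81.7% were above 0 at 24 h on the arrays with LE RNA in Cy5 and 81.7% on those with Cy3, and at 48 h 87.8% and 68.3%. The shares of all features above 0 were 53.9% and 49.3% at 24 h and 52.2% and 48.2% at 48 h. Of the lower set, 87.0% and 83.6% were below 0 at 24 h and 92.7% and 74.0% at 48 h, against 46.1% and 50.7% of all features at 24 h and 47.8% and 51.8% at 48 h. In limma, 17 of the 82 higher features had an unadjusted p under 0.05 above 0 at 24 h (2.14% of all features) and 29 at 48 h (5.12%), while 1 was below 0 at 48 h. Of the 262 lower features, 99 did so below 0 at 24 h (3.64%) and 73 at 48 h (4.17%). None of the 344 passed FDR 0.05 at 24 h or 48 h in limma. Features that followed the dye behaved alike. When ratios were turned by dye label, 32 features were above 1 and 45 below -1 on both 72 h arrays. Of these, 28 of the 32 and 45 of the 45 had the same side at 24 h when turned, and 27 and 44 at 48 h. Among all features so turned, 53.8% were above 0 and 46.2% below at 24 h, and 54.5% and 45.5% at 48 h.

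**Figure D4:**
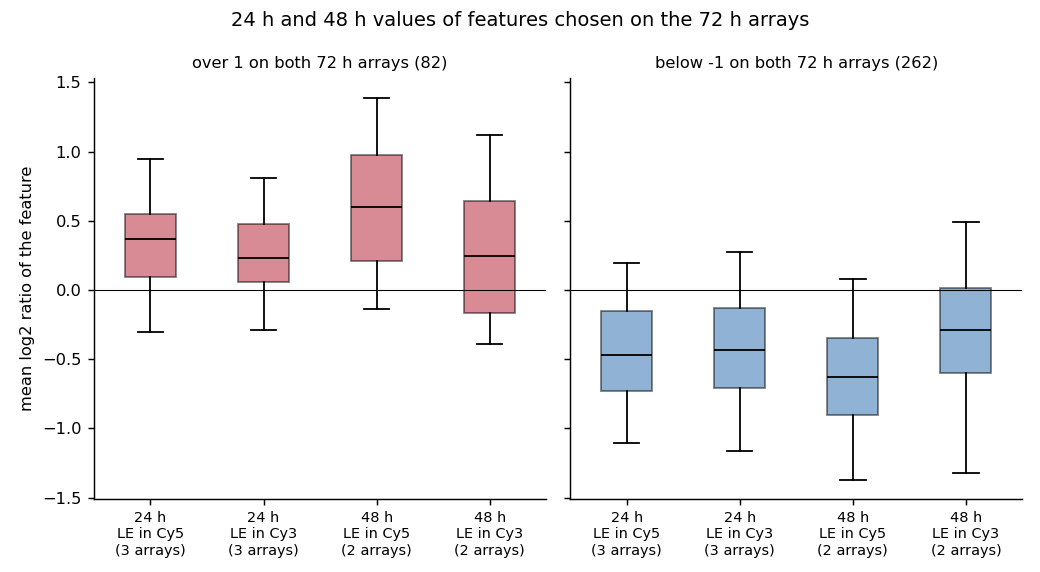
Mean log2 ratio (vertical) at 24 h and 48 h, by the dye of the LE RNA, of the 82 features above 1 (left) and the 262 below -1 (right) on both 72 h arrays. Boxes span the quartiles over features with the median as a line, and whiskers the 5th to 95th percentiles. All 4 medians lie above 0 on the left and below 0 on the right.

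A few features lay on the same side on all 12 arrays. Of the 82 higher features 4 (4.88%) were above 0 on all 10 earlier arrays, against 0.169% of all features, and of the 262 lower ones 10 (3.82%) were below, against 0.362%. The higher ones with a symbol were SAMD8, UQCC1 and TMCO1. UQCC1, which helps to assemble complex III of the respiratory chain, had 1.15 and 1.30 at 72 h, 0.63 ± 0.44 at 24 h and 1.23 ± 0.63 at 48 h. TMCO1, a calcium-channel protein of the endoplasmic reticulum, had 1.06 and 1.29, after 0.65 ± 0.44 and 1.24 ± 0.74, and its other feature had 0.11 and 1.06 at 72 h. The lower ones were MRPS12, SDHAP4, VPS39, NOA1, SLC29A4 and FGF7P6. MRPS12, a mitochondrial ribosomal protein, had -1.19 and -1.27, after -0.69 ± 0.49 and -0.70 ± 0.44, but its other feature had 0.89 and -0.42 at 72 h. NOA1, a mitochondrial GTPase, had -1.53 and -1.09, after -0.63 ± 0.28 and -0.73 ± 0.28. VPS39, a subunit of the HOPS complex that tethers vesicles to lysosomes, had -2.46 and -1.49, after -1.37 ± 0.51 and -0.30 ± 0.15. SLC29A4, a monoamine transporter, had -1.48 and -1.03, and the pseudogene SDHAP4, which resembles SDHA, had -1.18 and -1.13. These genes were named for this pattern after their values were seen.

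The direct comparison of 72 h with each earlier time gave 0 features at FDR 0.01 in limma, and 0 at FDR 0.05, against both 24 h and 48 h. At an unadjusted p under 0.05 there were 669 against 24 h and 668 against 48 h. For EGFR the difference was -2.93 against 24 h and -3.06 against 48 h (adjusted p = 0.371 and 0.454). For WDFY3-AS2 it was -2.28 and -2.08 (adjusted p = 0.263 and 0.454). A difference between 72 h and the earlier times was thus not called for any feature.

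Averaged into genes, 2699 of 8828 (30.6%) were above 0 on both 72 h arrays and 2103 (23.8%) below, 4802 in all (54.4%), and the median of all genes was 0.04. In limma 0 genes passed FDR 0.01. At FDR 0.05 there were 5, all below 0 (0.0566%), namely CEBPA and WDFY3-AS2 (adjusted p = 0.0101 each), MRPL12 (0.0408), FGF7P6 and VPS39 (0.0482 each). Each of these 5 was measured by 1 feature, so its gene mean is the value of that feature and no added evidence. Tested over features, the adjusted p in limma was 0.0275 for CEBPA and WDFY3-AS2, 0.0807 for MRPL12, 0.0876 for FGF7P6 and 0.102 for VPS39. EGFR was not among the 5. At an unadjusted p under 0.05, 378 genes (4.28%) were above 0 and 411 (4.66%) below. The 22 pathway lists held 554 measured genes, of which 0 passed FDR 0.01 and 2, CEBPA and VPS39, passed 0.05. Values in the lists are gene means. The members named are from the 2 highest and 2 lowest of those on the same side on both arrays, and are not always the most extreme. List medians ran from -0.15 to 0.18. These depend on the reading of the ratios, since after turning by dye label the median was 0.02 for heat shock, -0.08 for the tricarboxylic acid cycle and -0.00 for apoptosis.

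Lists of stress and protein-quality genes had members on both sides of 0. Of 18 measured heat shock genes, 9 were below 0 on both arrays and 3 above, with a median of -0.15. The lowest were HSPA14, an HSP70 relative on the ribosome (-0.80 and -1.46), and HSPE1, the mitochondrial chaperonin cofactor HSP10 (-0.85 and -0.81), and HSPA4 (0.31 and 0.23) was the highest of those above 0 on both arrays. Of 28 genes of the unfolded protein response 10 were above and 6 below, with a median of 0.01. There ASNS, asparagine synthetase (0.92 and 0.48), and DDIT3, the stress transcription factor CHOP (0.42 and 0.92), were highest and the disulfide isomerase PDIA4 (-0.80 and -0.28) lowest. In N-glycosylation and translocation into the endoplasmic reticulum 8 of 27 were above and 7 below, with the oligosaccharyltransferase subunits STT3A (0.71 and 0.93) and TMEM258 (-2.30 and -1.50) at opposite ends. Of 31 proteasome genes 7 were above and 4 below, and of 33 autophagy and lysosome genes 10 and 7. In the latter list ATG7, which activates autophagy conjugation, had 0.45 and 0.89 and GABARAPL1 -0.99 and -0.48. Of 21 NRF2 targets 6 were above, among them SOD2, the mitochondrial superoxide dismutase (1.32 and 0.54), and TXN, thioredoxin (0.82 and 0.68), and 3 below, among them CAT, catalase (-0.42 and -0.68).

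Lists of cell death and growth control held more members above than below 0, which was not particular to them. Most other lists did too, such as DNA replication (12 and 6) and the tricarboxylic acid cycle (8 and 3). Of 23 apoptosis genes 10 were above 0 on both arrays and 2 below, with a median of 0.13. APAF1, the apoptosome scaffold, had 0.56 and 1.46, and CASP2 had 0.71 and 0.30, while DIABLO, an antagonist of apoptosis inhibitors, had -0.37 and -0.41. Of 24 genes listed for early growth and stress responses 11 were above and 4 below (median 0.13). They ran from ZFP36L1 (1.18 and 0.34) and CEBPG (1.04 and 0.42) to EGR1 (-0.70 and -1.39) and CEBPA. Of 18 p53 targets 6 were above and 2 below, with MDM2, the p53 ubiquitin ligase, at -0.79 and -0.10 over 10 features and TP53I3 at 0.39 and 0.23. These differences in count lay beside shares of 30.6% and 23.8% over all genes, and no member other than CEBPA passed FDR 0.05 in limma.

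Proliferation lists had members on both sides of 0. Of 33 DNA replication genes 12 were above and 6 below, with a median of 0.01, led by POLA1, the catalytic subunit of DNA polymerase alpha (1.05 and 0.90), and with RPA2 (-0.42 and -0.75) the lowest of those below 0 on both arrays. Of 23 mitosis genes 7 were above and 7 below, and KIF23, a cytokinesis motor, had -0.21 and -2.58, so its mean rests on replicate 2. Of 24 DNA repair genes 5 were above and 3 below, with ERCC3, a helicase of TFIIH, at 0.71 and 0.48 and UNG, the uracil glycosylase, at -0.17 and -1.04. Of 60 ribosomal proteins 15 were above and 12 below. RPL19 had -3.03 and -0.86, RPL27 -0.69 and -0.88 and RPL23 1.24 and 0.63, and such genes have many processed copies in the genome. Of 29 RNA polymerase II genes 10 were above and 6 below, with TAF9B (2.17 and 0.73) and TAF11 (-1.58 and -1.12), both subunits of TFIID, at the ends. Of 25 nuclear pore genes 9 were above and 9 below, with NUP133 at 0.77 and 0.75 and NUP43 at -0.42 and -1.30.

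In metabolism, 8 of 18 genes in the list of the tricarboxylic acid cycle were above 0 and 3 below, with the highest list median, 0.18. The list also holds cytosolic relatives of cycle enzymes, such as IDH1, the cytosolic isocitrate dehydrogenase, with 1.13 and 0.97. SDHC, a subunit of succinate dehydrogenase, had 1.22 and 0.44. Of 21 glycolysis genes 8 were above and 7 below, and here ENO2 (1.78 and 0.10) and ALDOA (-2.08 and -0.93) stood apart. Fatty acid synthesis had 5 above and 4 below of 14, with SCD, the stearoyl-CoA desaturase, at -0.60 and -0.71 over 2 features and ELOVL6, an elongase, at 0.29 and 0.39. Cholesterol synthesis had 4 and 3 of 19, with SC5D at -0.49 and -0.67, and hypoxia targets 4 and 4 of 16.

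In the interferon list 11 of 37 genes lay above 0 on both arrays and 13 below, with a median of -0.02, and a few lay far from 0 in each direction. IFITM1, an antiviral membrane protein, had 1.15 and 0.98 and IFI44 1.22 and 0.84, whereas DDX60, a helicase, had -1.42 and -2.53 and OASL, a relative of the oligoadenylate synthetases, -1.47 and -1.96. Basement membrane genes were 2 above and 2 below of 13. LAMC1, the laminin gamma 1 chain, had -2.10 and -0.94 and was below 0 on all 10 earlier arrays, with means of -0.71 ± 0.54 at 24 h and -1.29 ± 0.35 at 48 h, while LAMB1, the beta 1 chain, had 0.68 and 0.55. Over all lists, 2 of 1106 features were above 1 on both arrays, those of RPS28 and JUN, and 14 were below -1, where 0.479% and 1.53% of all features were.

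**Figure D5:**
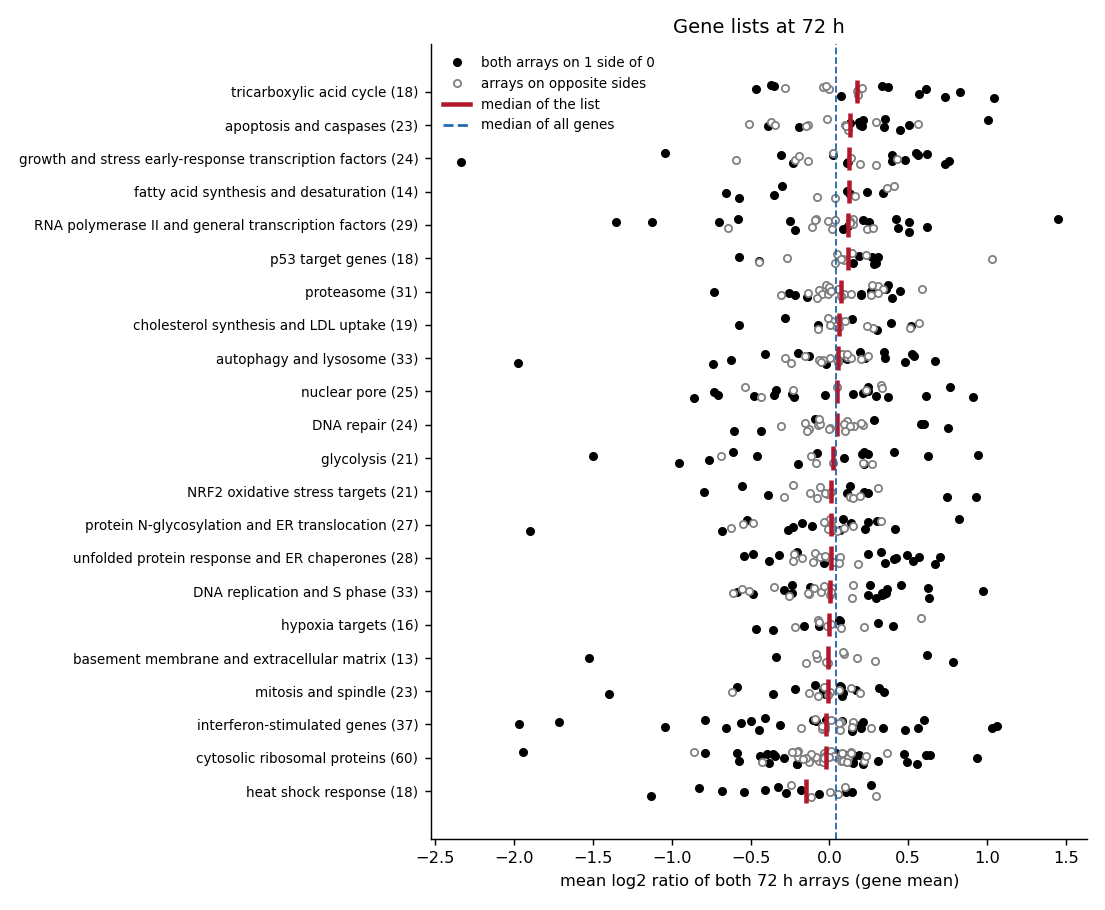
Mean log2 ratio of both 72 h arrays (horizontal) for each measured gene of 22 lists, with the number of genes in brackets, filled where both arrays lay on the same side of 0 and open where they did not. Red bars are list medians, from -0.15 for heat shock to 0.18 for the tricarboxylic acid cycle, and the dashed line is the median of all genes (0.04).

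Markers of the cell type gave ratios and not levels. Of the carcinoma epithelium markers 4 of 7 had a value, KRT8 (0.21 and -0.11), KRT18 (0.21 and 0.84), KRT19 (0.44 and 0.04) and MUC1 (0.06 and -0.41). Of the mesenchymal markers VIM had a value (0.19 and 0.48), as did COL1A1 of fibroblasts (-0.15 and -0.35) and CD14 of monocytes (0.01 and 0.99). Of 6 acinar and endocrine markers and 4 endothelial markers on the array none had a value. The paper lists the endothelial marker VWF among genes lowered by LE, whereas here no feature annotated to it had a value. The reason for this difference was not tested. None of the measured markers passed FDR 0.05 in limma.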

How the data were processed

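Per the labels and methods, the authors scanned 2-colour arrays, filtered spots by quality and deposited log2 ratios from limma, its version not given in the sources used here, after lowess normalization within arrays and quantile normalization between them. Scale and centring are those of the authors. The direction is not stated, and no array was turned. Of 941 probes listed by the study, 419 had a 72 h value equal (within 2e-05) to the mean of the ratios as deposited at some feature, and 76 when turned by the dye labels, which shows how columns were averaged and not the direction of each. Symbols came from the platform annotation, and 13431 of 13436 matched RefSeq by gene ID.

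Here limma 3.58.1 (R 4.3.3, statmod 1.5.0) was fitted with lmFit and eBayes, with 1 term per time point over 12 arrays (9 residual degrees of freedom, prior 6.20). The script was tested on simulated data. A gene value is the mean of its features of 1 symbol. Named are the 12 features of 1 symbol farthest above and below 0 by the smaller of their 2 sizes. Also named are 5 genes each way with all features on the same side, ACTB, GAPDH and features at FDR 0.05. In each list the rule selects the 2 highest and 2 lowest gene means of members on the same side on both arrays. Not all of these are named in the text. Features of list genes over 1 in size and those with the same side on every array were added after seeing values. Members, lists and tests were chosen with earlier results of these data known. The number of arrays limits the precision. Alternatives were turned, centred or scaled ratios, a dye term, the replicate block, the 72 h arrays alone, robust fits, gene means, other thresholds and each array left out. Python 3.11.15, pandas 2.3.3, scipy 1.17.1 and matplotlib 3.10.9 made the tables and plots.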

Additional observations from a re-analysis of the deposited data

Results flagged for a closer look

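Among the 24 named features, 48 groups of 4 or 6 earlier arrays were searched for an array far from the others, and 4 had one, where chance flags about 1 in 20. For CYFIP1 at 48 h, replicate 1 had 0.39 while the nearest other array had 1.96. For HADH at 48 h, replicate 1 had -0.83 while the nearest had 0.16. For LCLAT1 at 24 h, replicate 6 had 2.15 while the nearest had -0.04. For FGF7P6 at 24 h, replicate 6 had -2.15 while the nearest had -1.31.

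Among the genes that the naming rules select, ENO2 and OSTC had 72 h arrays above 0 while every array at 48 h lay below. ENO2 had a mean of 0.94 at 72 h and -0.42 at 48 h, and OSTC, an oligosaccharyltransferase subunit, 0.42 and -0.53. In limma 0 features passed FDR 0.05 for 72 h against 48 h, so the difference was not called for either gene, each measured by 1 feature.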

How the results depend on the processing

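At 72 h the count at FDR 0.01 in limma was 0 with turned, centred or scaled ratios, a dye term, the 72 h arrays alone, robust empirical Bayes, gene means and each array left out (0 to 0), and 41 with robust regression. It was 3 at FDR 0.05. With the replicate block it was also 0 (5 at FDR 0.05). Same-numbered arrays had deviations that correlated between 0.058 and 0.489, and arrays of the same dye orientation but different numbers between 0.018 and 0.479, so the number was not taken to pair them. For 72 h against 24 h and against 48 h the count was 0 under the alternatives run, each array left out included (0 to 0), except 1 against 24 h with robust regression. For these differences centring, scaling, robust fits and gene means were added after seeing the data. Features on the same side on both arrays numbered 9264, against 1850 over 0.5 and 344 over 1 in size, and 4802 as gene means. Features above 1 numbered 82, and 32 when turned, 33 as gene means and 858 over 0.5. Those below -1 numbered 262, and 45, 89 and 992. The correlation of the 72 h arrays was -0.187 when turned and 0.366 with the dye effect removed. Leaving out an array at 24 h gave 75.6% to 91.5% of the higher and 83.2% to 92.7% of the lower set on the same side, and at 48 h 75.6% to 93.9% and 80.5% to 94.3%. Of the list medians under alternatives, 30 of 110 moved by more than the spread of the 2 arrays. No left-out array could be tried for counts and correlations that need both 72 h arrays.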
